A study of Mus musculus with 2 samples.

Results

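The miR-148 and miR-152 family is a set of 3 microRNA genes, Mir148a, Mir148b and Mir152, among the 1973 miRNA genes counted in embryonic mouse intestine. Its members were taken by name: the Ensembl identifiers of the count tables were looked up in the GENCODE mouse annotation, and all 3 members had a row. The series holds 2 libraries of small RNA under 30 nucleotides from B6NCrl mice at embryonic day 16.5, each from intestine pooled over male and female embryos described as healthy. The labels name them as biological replicates 2 and 1 of 1 group. Replicate 2 was pooled from 41 embryos, while the labels do not say how many embryos gave replicate 1. With 1 group there are no conditions to contrast. The members are therefore compared with each other, with other miRNA genes and between the libraries.

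MicroRNAs are small regulatory RNAs processed from hairpin precursors, and they repress messenger RNAs that pair with their seed, bases 2 to 8 from the 5′ end. The members of this family carry the same seed on the 3p arm, the mature miRNA from the 3′ side of the hairpin. Work in human cells named Dnmt1, the enzyme that copies DNA methylation at cell division, as one of their targets. In mammals miR-148a is best known from liver, pancreas and stomach, where it belongs to the miRNAs of differentiated digestive epithelium, and from milk.

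The 3p sequences are shown first because they define the family and because their few differences decide whether reads of the members can be told apart. Capitals mark the seed, and the sequences are RefSeq entries on build GRCm38.p6, the same assembly as the mm10 files.
miR-148a-3p: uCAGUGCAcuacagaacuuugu
miR-148b-3p: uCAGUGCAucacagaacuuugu
miR-152-3p: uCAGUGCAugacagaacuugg

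The shared part begins at the first base and covers 8 bases, and a second shared stretch of 9 bases runs from position 11 to position 19. With positions counted from 1 at the 5′ end and the first-named member's base first, Mir148a and Mir148b differed by C9U and U10C, 20 of 22 positions being the same. Mir148a and Mir152 differed by C9U, U10G and U20G, and Mir148b and Mir152 by C10G and U20G. The longest stretch common to a pair of 3p miRNAs was 12 bases, between Mir148a and Mir148b. Against 1002 other mouse hairpins in the table used, no mature sequence of the family shared more than 11 bases. No member had an identical mature copy in another gene of that table. The number of mismatches allowed when the reads were placed is not given in the sources used here.

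The 5p arms, from the other side of the hairpin, show less likeness, and they are shown because the deposited counts are per gene and hold both arms.
miR-148a-5p: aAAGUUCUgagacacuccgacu
miR-148b-5p: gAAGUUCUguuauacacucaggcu
miR-152-5p: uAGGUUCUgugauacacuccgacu

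The seed of the 5p arm was common to Mir148a and Mir148b and differed in Mir152. How many of a gene's reads came from each arm cannot be read from these counts, so levels are those of the gene and not of the 3p miRNA alone.

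The loci are far apart, and their surroundings resemble each other. The hairpins are printed with the 3p arm in capitals. They are 99, 97 and 73 bases long for Mir148a, Mir148b and Mir152, and the RefSeq positions were the same as those of GENCODE.
Mir148a hairpin: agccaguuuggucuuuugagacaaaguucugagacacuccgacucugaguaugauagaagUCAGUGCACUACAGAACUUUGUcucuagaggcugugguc
Mir148b hairpin: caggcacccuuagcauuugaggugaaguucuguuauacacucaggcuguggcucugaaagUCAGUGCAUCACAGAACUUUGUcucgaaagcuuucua
Mir152 hairpin: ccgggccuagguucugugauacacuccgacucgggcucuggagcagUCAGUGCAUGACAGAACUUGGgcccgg

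Mir148a (ENSMUSG00000065505.1) lies on the minus strand at chr6:51269812-51269910, between genes. The nearest annotated gene, the long noncoding RNA Gm32479, is 13622 bases away and the nearest coding gene, Nfe2l3, 162760 bases away. Mir148b (ENSMUSG00000065560.1) lies on the plus strand at chr15:103285125-103285221, in intron 1 of Copz1 and on its strand. Mir152 (ENSMUSG00000065515.1) lies on the plus strand at chr11:96850393-96850465, in intron 1 of Copz2 and on its strand. Copz1 and Copz2 encode the alternative zeta subunits of the COPI coat, which carries vesicles from the Golgi back to the endoplasmic reticulum. The host introns differ in length, 16159 bases in Copz1 and 676 bases in Copz2. No other annotated miRNA gene lies within 10 kb of a member.

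Each locus has a gene of the Nfe2 transcription factor family and a gene of the Cbx1, Cbx3 and Cbx5 family of heterochromatin proteins beside it. For Mir148a these are Nfe2l3 and Cbx3, at 163 and 200.4 kb. For Mir148b they are Nfe2 and Cbx5, at 26.7 and 45.3 kb, and for Mir152 they are Nfe2l1 and Cbx1, at 20.4 and 41.8 kb. Hnrnpa2b1 and Hnrnpa1, which encode related RNA-binding proteins, lie 191 kb from Mir148a and 38.4 kb from Mir148b. These neighbours were chosen by looking through the annotation and describe position only.

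The question of level is which member supplies most of the family in fetal intestine. Levels are counts on the strand of the gene per sum over all gene rows, expressed as counts per 1000000 (CPM). The totals were 5680764 counts in replicate 2 and 4261976 in replicate 1, so that 3 counts correspond to 0.528 and 0.704 CPM. Genes said to be at 0 have exactly 0 counts. Intervals are exact Clopper-Pearson 95% intervals, which cover counting error only, since copies made by PCR could not be told from separate molecules. Libraries of short RNA also recover some sequences better than others, which the spread between the libraries does not show. In these bulk samples, fewer cells of a type and less RNA per cell cannot be told apart.

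Mir148a was the main member. It had 6026 counts in replicate 2 and 4106 counts in replicate 1. That is 1061 CPM (1034 to 1088) in replicate 2 and 963 CPM (934 to 993) in replicate 1, a mean of 1012 ± 68.9 CPM (SD, n = 2). The intervals do not overlap, and the level was higher in replicate 2.

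Mir148b, the member with the same 5p seed as Mir148a, was well below it in both libraries. It had 1043 counts in replicate 2 and 681 counts in replicate 1. Its level was 184 CPM (173 to 195) in replicate 2 and 160 CPM (148 to 172) in replicate 1, a mean of 172 ± 16.8 CPM (n = 2). Replicate 2 was again the higher, with an interval just clear of the other.

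Mir152, known from human tumours in which its locus is methylated, was the lowest member. It had 747 counts in replicate 2 and 577 counts in replicate 1. Its level was 131 CPM (122 to 141) in replicate 2 and 135 CPM (125 to 147) in replicate 1, a mean of 133 ± 2.75 CPM (n = 2). The intervals overlap, and here replicate 1 was slightly the higher.

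**Figure D1:**
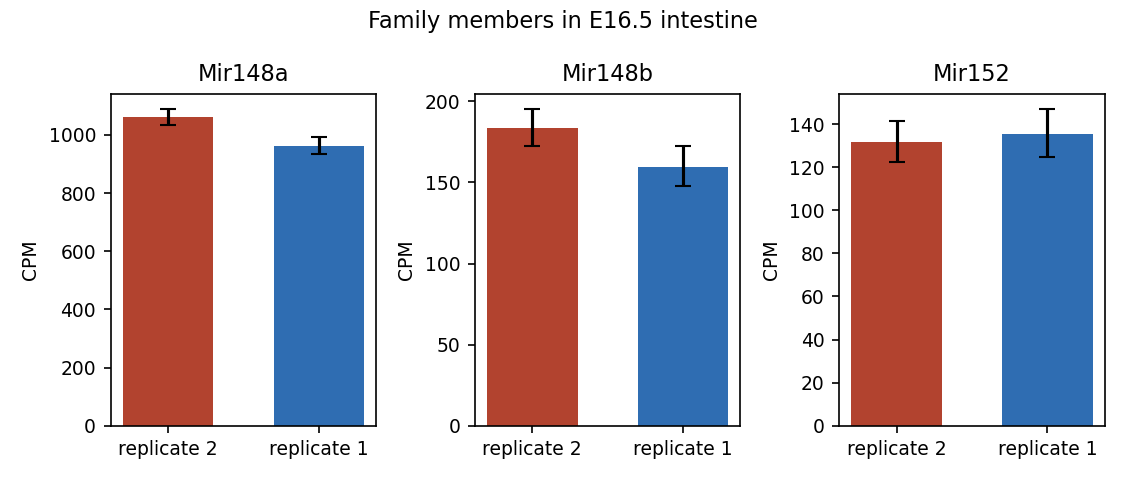
Level of each family member in CPM (counts on the strand of the gene per 1000000 gene counts, linear axis from 0, a separate scale per panel), with replicate 2 on the left and replicate 1 on the right. Error bars are exact 95% intervals for counting error; Mir148a stands at 1061 and 963 CPM, and the bars of Mir152 overlap.

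The order was therefore Mir148a, Mir148b, Mir152, and it was the same in both libraries. The gap from Mir148a to Mir148b was many times the SD of either. The gap from Mir148b to Mir152 also exceeded both SDs, and within each library their intervals did not overlap, although in replicate 1 the lower bound of Mir148b (148 CPM) lay just above the upper bound of Mir152 (147 CPM).

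Ratios within a library show the same order without any scaling between libraries. Mir148a was 5.78 times Mir148b (5.41 to 6.18) in replicate 2 and 6.03 times (5.56 to 6.55) in replicate 1. It was 8.07 times Mir152 (7.48 to 8.72) in replicate 2 and 7.12 times (6.52 to 7.78) in replicate 1. Mir148b was 1.40 times Mir152 (1.27 to 1.54) in replicate 2 and 1.18 times (1.05 to 1.32) in replicate 1. All 6 intervals lie above 1.

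**Figure D2:**
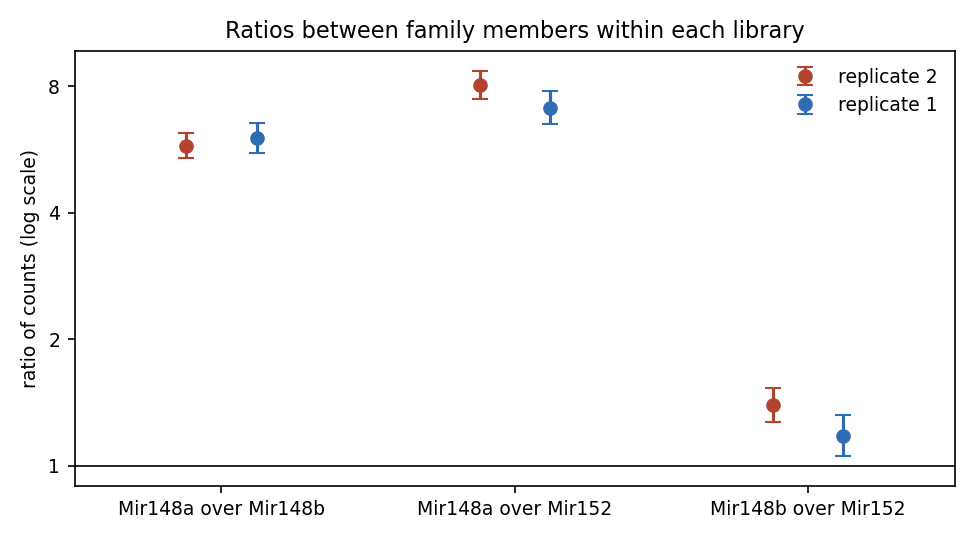
Ratio of counts between each pair of members within each library (log axis), replicate 2 in red on the left and replicate 1 in blue on the right of each pair. Bars are exact 95% intervals; the line marks equal counts, and the ratios of Mir148b to Mir152, 1.40 and 1.18, lie nearest to it.

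The ratio of Mir148a to Mir148b was nearly the same in the libraries. Its value in replicate 2 over that in replicate 1 was 0.958, with a 95% counting interval of 0.863 to 1.06 that includes 1. Both ratios to Mir152 were somewhat larger in replicate 2. For Mir148a over Mir152 the quotient was 1.13 (1.01 to 1.27) and for Mir148b over Mir152 it was 1.18 (1.02 to 1.37). These 3 pairs were compared with no adjustment for their number, and the intervals set the libraries against counting error and not against the spread between pools of embryos.

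Within the family, Mir148a made up 77.1% of the counts (76.2 to 78.0) in replicate 2 and 76.5% (75.4 to 77.7) in replicate 1. Mir148b made up 13.3% (12.6 to 14.1) in replicate 2 and 12.7% (11.8 to 13.6) in replicate 1. Mir152 made up 9.56% (8.91 to 10.2) in replicate 2 and 10.8% (9.94 to 11.6) in replicate 1. The makeup of the family was thus close in the libraries. The intervals of each member's share overlapped, which does not show equal shares. The quotients of both ratios to Mir152, given above, had intervals above 1.

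As a whole the family was a small part of the miRNA gene counts. The 3 genes together held 7816 counts in replicate 2 and 5364 counts in replicate 1, or 0.138% (0.135 to 0.141) and 0.126% (0.123 to 0.129) of the counts. The mean was 0.132% ± 0.00829 (n = 2). By mean CPM, Mir148a ranked 94, Mir148b 168 and Mir152 182 of the 1973 genes, of which 1257 had 0 counts in both libraries. Mir148a was the last of the 94 genes that reached 1000 CPM. All 3 members lie above the median of 129 CPM over the 364 genes with at least 20 counts summed.

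The seed was looked for in every mature sequence of the table, which matched 916 of the genes by symbol. The seed CAGUGCA occurred at bases 2 to 8 in these 3 genes only. Genes that share a seed were summed, each gene being counted under the seeds of both its arms. The sum for this family, 1376 CPM in replicate 2 and 1259 CPM in replicate 1, ranked 127 of 1205 seeds, and 40 of the 185 seeds carried by 2 or more genes. Since a gene's counts enter for both arms, seeds of rarely used arms rank too high in this order. Genes missing from the table add no seed to it, among them Mir143, the gene with the highest mean CPM. The ranks therefore hold among the matched genes only.

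Small gaps in mean CPM are built into the choice of the genes nearest to each member in level. A gap within the larger SD can also reflect a wide spread between the libraries. The genes taken were the 2 just above and the 2 just below by mean over the 2 libraries. Around Mir148a these were Mir16-1 (1028 CPM in replicate 2 and 1124 CPM in replicate 1), Mir301 (1111 and 987 CPM), Mir188 (1083 and 908 CPM) and Mir1193 (907 and 1074 CPM). None of the 4 differed from Mir148a by more than the larger of the 2 SDs, and Mir301 kept its place above Mir148a in both libraries. Around Mir148b they were Mir187 (182 and 170.1 CPM), Mirlet7a-2 (182 and 168 CPM), Mir138-1 (168 and 171 CPM) and Mir490 (127 and 209 CPM). None of those differed from Mir148b by more than the larger SD, and none kept its order in both libraries. Around Mir152 they were Mir222 (129 and 148 CPM), Mir30b (118 and 150.4 CPM), Gm23935 (120 and 130 CPM) and Mir495 (78.3 and 148 CPM). Only Gm23935 lay further from Mir152, by 8.92 CPM, than the larger SD of 7.06 CPM. In the sequence table used, Mir16-1 and Mir138-1 each share an identical mature sequence with another gene. Of these 12 neighbours 9 are in that table. Mir187, Mir30b and Gm23935 are not and could not be checked. Copies in genes missing from the table would not be found for the others either. Multimapping reads, 25.7% of the total in replicate 2 and 26.2% in replicate 1, are in no gene count.

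**Figure D3:**
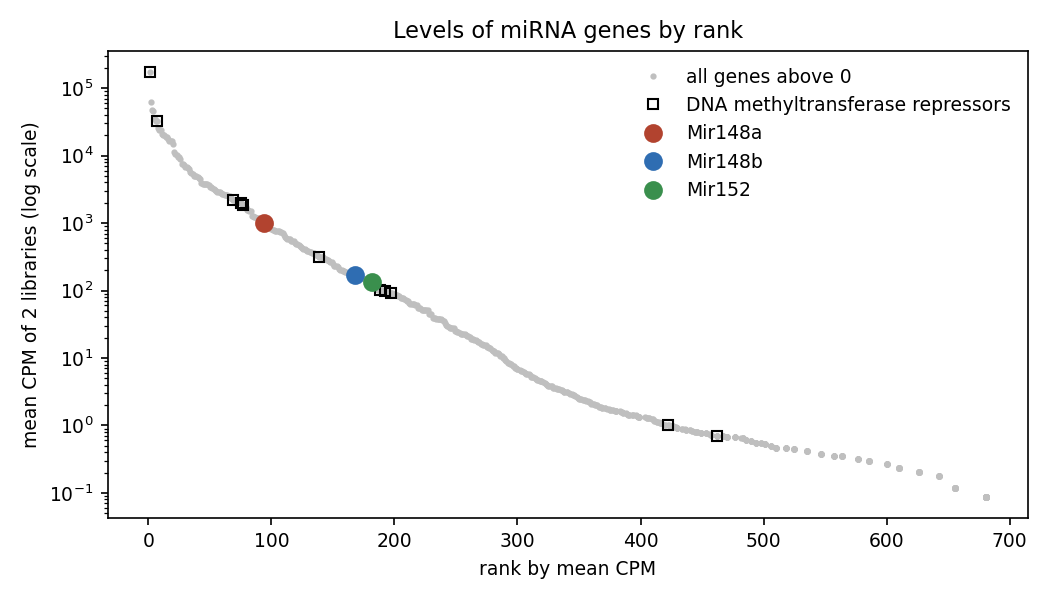
Mean CPM of the 2 libraries (log axis) against rank for every miRNA gene above 0, with the 3 members as coloured circles and the 11 listed repressors of DNA methyltransferases as open squares. Mir148a sits at rank 94, Mir148b at 168 and Mir152 at 182, below the listed Mir143 and Mir126a.

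The named target Dnmt1 has a match to the family's seed. In the longest annotated 3′ UTR of Dnmt1 (transcript Dnmt1-203, 312 bases), the seed's complement TGCACTG occurred once, starting 23 bases after the stop codon. It is shown in capitals with its surroundings on the transcript strand, at chr9:20907485-20907513 (minus strand, mm10).
Dnmt1 site: acccagagccccacgTGCACTGatgtttt

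The base after the match is A, which lies opposite the first base of the miRNA. Only the transcript strand was searched. The letters TGCACTG occurred in 12.7% of 20982 mouse 3′ UTRs, 1 per coding gene, with a median length of 961.5 bases. Among 838 UTRs within 10% of the length of that of Dnmt1 the share was 2.86%, and TGCACTG followed by A occurred in 3.58% of all UTRs. The 3′ UTRs of Dnmt3a (6696 bases) and Dnmt3b (1331 bases), which encode the enzymes that set new DNA methylation, held no match, and each had 1 match upstream of its UTR. Matches are letters in a transcript and not evidence of binding, and messenger RNA was not measured here.

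Other miRNAs reported in human or mouse cells to repress DNA methyltransferases were compared as a list of 11 genes, all of which had a row and none of which was at 0 in both libraries. The list held 21.1% of the counts in replicate 2 and 21.4% in replicate 1, a mean of 21.3% ± 0.256 (n = 2), and most of this came from Mir143, a miRNA of smooth muscle reported to repress DNMT3A (170594 CPM in replicate 2 and 177010 CPM in replicate 1). Without Mir143, a choice made after seeing the data, the other 10 genes held 4.03% in replicate 2 and 3.75% in replicate 1. The median of the list was 318 CPM, against 172 CPM for the 3 members, and the list ranged from 0.704 to 173802 CPM.

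Of the listed genes named for Dnmt1 like the present family, the endothelial Mir126a stood far above Mir148a, at 33590 CPM in replicate 2 and 30785 CPM in replicate 1. Mir342 had 1963 CPM in replicate 2 and 2466 CPM in replicate 1, and Mir140, known from cartilage, 2088 and 1911 CPM. Mir185 had 331 CPM in replicate 2 and 305 CPM in replicate 1, between Mir148a and Mir148b. Mir101a and Mir101b, named for DNMT3A, differed widely, at 109 and 95.3 CPM for Mir101a and 1970 and 1711 CPM for Mir101b in replicates 2 and 1.

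The miR-29 genes, the best known repressors of Dnmt3a and Dnmt3b, were low. Mir29a had 102 CPM in replicate 2 and 96.9 CPM in replicate 1, and Mir29c 98.9 and 82.8 CPM. The 4 miR-29 genes together had 202 CPM in replicate 2 and 181 CPM in replicate 1. The family of Mir148a was 6.80 times this sum in replicate 2 and 6.94 times in replicate 1. That ratio leans on what the counts leave out: Mir29b-1 (0.704 CPM in both libraries) and Mir29b-2 (1.06 CPM in replicate 2 and 0.939 CPM in replicate 1) have an identical mature sequence, and a multimapping read is counted for neither.

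Differences between the libraries were tested by a two-sided exact binomial test for each of 364 genes with at least 20 counts summed, scaled by TMM (edgeR's trimmed mean of log ratios) and adjusted by Benjamini-Hochberg over all of them. The test compares 2 libraries, not conditions, and measures counting error alone. Of the 3 members, 2 were higher in replicate 2, none was lower and 1 did not pass. Over all genes tested, 24.5% were higher in replicate 2 and 27.5% were lower, so calls of this kind were common.

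Mir148a was higher in replicate 2 by 0.27 ± 0.03 on the log2 scale (counting SE), a 1.20-fold difference (adjusted p of the exact test 1.72e-19). Mir148b was higher by 0.33 ± 0.07 or 1.26-fold (adjusted p of the exact test 1.28e-05). Mir152 had a log2 ratio of 0.09 ± 0.08 with a 95% counting interval of -0.07 to 0.24 (adjusted p of the exact test 0.377). The sizes are ordinary among the genes tested: the median absolute log2 ratio was 0.21, and those of Mir148a, Mir148b and Mir152 stood at percentiles 58.8, 68.7 and 22.8. The SD was 6.80%, 9.81% and 2.06% of the mean CPM for Mir148a, Mir148b and Mir152, against a median of 11.4% over these genes. CPM is scaled by total counts, so these percentages are not on the TMM scale of the ratios and percentiles.

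The size of the ratios depends on the scaling. TMM places every log2 ratio 0.13 above its value with total counts. With total counts Mir148a had 0.14 and Mir148b 0.20 and both still passed (adjusted p of the exact test 5.49e-06 and 0.00978), while Mir152 had -0.04 and again did not pass (adjusted p 0.66). Of all 364 genes tested with total counts, 12.6% were higher in replicate 2 and 45.1% lower.

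**Figure D4:**
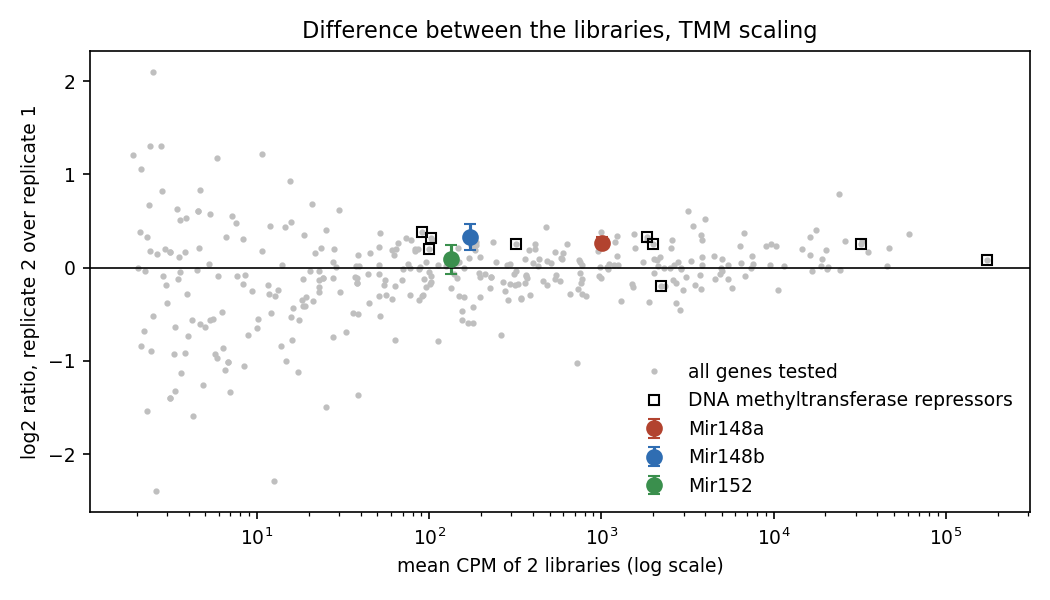
Log2 ratio of replicate 2 to replicate 1 under TMM scaling against mean CPM (log axis) for the 364 genes tested, with the members as coloured circles, their 95% counting intervals as bars and the listed repressors of DNA methyltransferases as open squares. Mir148a and Mir148b lie above 0 at 0.27 and 0.33, inside the cloud of other genes, and the bar of Mir152 crosses 0.

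Of the 11 listed repressors, 9 were tested, 7 were higher in replicate 2, Mir342 was lower and Mir29a did not pass. Over all genes tested, 24.5% were higher and 27.5% lower. The median log2 ratio of the list was 0.26, beside 0.27 for the members and -0.02 for all genes. The highest ratio among the listed repressors was that of Mir29c, 0.39 ± 0.10 (adjusted p of the exact test 0.00024). With total counts 5 were higher and 2 lower, against 12.6% and 45.1% of all genes, since Mir143, at 0.08 under TMM, had -0.05 and was called lower, and Mir101a did not pass (adjusted p of the exact test 0.0675).

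Markers of intestinal cell types moved between the libraries as well. All 9 listed epithelial miRNA genes, those of miR-200, miR-192, miR-194 and miR-215, were higher in replicate 2 with a median log2 ratio of 0.30. Over all genes tested, 24.5% were higher and 27.5% lower. The 9 genes held 10.8% of the counts in replicate 2 and 9.07% in replicate 1. With total counts 7 of the 9 were higher and 1 lower, against the same 12.6% and 45.1% of all genes. Of the 6 mesenchymal genes 1 was higher and 4 were lower under TMM. They held 17.8% of the counts in replicate 2 and 18.6% in replicate 1. Most of this was Mir143, at 170594 of 177948 CPM in replicate 2 and 177010 of 185885 CPM in replicate 1. Mir194-1, Mir194-2, Mir199a-1, Mir199a-2 and Mir199b have identical mature copies in other genes, and multimapping reads are counted for none of them. The endothelial Mir126a was higher. The mesenchymal gene called higher was Mir143, which with total counts had -0.05 and was called lower, so that 0 of the 6 were then higher and 5 lower. Their part in the ratios of Mir148a and Mir148b was not tested.

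Markers of liver and pancreas, organs known for miR-148a, were looked at because they develop beside the gut. Mir122, the hepatocyte miRNA, was at 448 CPM in replicate 2 and 994 CPM in replicate 1. Its log2 ratio was -1.02 ± 0.04 (counting SE). The 3 pancreatic genes Mir216a, Mir216b and Mir217 summed to 27 counts in replicate 2 and 7 in replicate 1, or 4.75 and 1.64 CPM, and Mir216b had 0 counts in replicate 2. The 5 blood genes held 0.129% in replicate 2 and 0.149% in replicate 1. Of these 1 was higher, 1 lower and 3 not past the test, beside 24.5% higher and 27.5% lower over all genes tested. The part of liver, pancreas or blood in the level or ratio of Mir148a was not tested.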

How the data were processed

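Small RNA libraries of 2 pools of embryonic mouse intestine were analysed. The deposited values are raw counts of reads for every miRNA gene, on mm10 with GENCODE M4 annotation, per the readme files. Aligner, counter and trimming: not given in the sources used here. Columns were told apart by their values: own-strand and opposite-strand counts sum to the first column, and the own-strand column, used here, held 96.2% to 96.3% of it. Members had 0 or 1 opposite-strand counts. Rows that name no gene were left out: in replicate 2, 17.2% of reads were unmapped, 25.7% multimapping and 2.88% outside miRNA genes, and in replicate 1 these shares were 19.5%, 26.2% and 3.69%. No column of other samples was present.

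Symbols are those of GENCODE M21, also on mm10 (1894 of 1973 identifiers matched), and sequences from RefSeq and from GENCODE transcripts. With only 1 group, the quasi-likelihood test of edgeR could not be used. Counts were compared by an exact binomial test with TMM sizes from edgeR 4.0.16, and p-values were adjusted by Benjamini-Hochberg with a threshold of 0.05. A prior of 0.5 counts went into the log2 ratios. The test was checked on simulated data drawn with counting error alone and scaled by total counts. That check does not cover TMM scaling or the spread between pools of embryos. Python 3.11.15, scipy 1.17.1 and R 4.3.3 were used.

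Members, lists and tests were chosen with earlier results of these data known. Named genes were the members, the 2 genes ranked just above and below each by mean CPM, and the listed genes. Alternatives were unstranded counts, each library alone, Mir143 left out of the total, total counts or DESeq2 1.42.0 size factors, minimums of 1 and 200 counts, and a 1.5-fold minimum.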

Additional observations from a re-analysis of the deposited data

How the results depend on the processing

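Over 59 alternatives of 14 results, 46 left the result the same by the rule for its kind. Levels, shares and ratios between members had to stay within the SD of the 2 libraries. Log2 ratios had to keep their sign and their side of the threshold. Numbers of genes had to stay within 1.5-fold of the main number. A library alone always lies within the SD of 2 libraries, so those alternatives were the same by construction. With Mir143 left out of the total, the levels were 1225 CPM for Mir148a, 208 CPM for Mir148b and 162 CPM for Mir152, and the family share 0.159%, by construction. With unstranded counts Mir152 had 129 CPM and the listed methyltransferase repressors 20.5% of the counts. Without Mir143, chosen after seeing the data, that list held 3.89%.

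Each library alone gave 963 to 1061 CPM for Mir148a, 160 to 184 CPM for Mir148b, 131 to 135 CPM for Mir152, 0.126% to 0.138% for the family, ratios of 5.78 to 6.03, 7.12 to 8.07 and 1.18 to 1.40, and 21.1% to 21.4% for the list. The log2 ratio of Mir152 was -0.042 with total counts, by construction, since TMM places every log2 ratio 0.13 higher. For Mir148a it ranged from 0.14 to 0.31 and for Mir148b from 0.20 to 0.37, past the test each time.

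Of 364 genes, 189 differed, 89 higher in replicate 2 and 100 lower. Scaled by total counts, 46 genes were higher and 164 lower. With a 1.5-fold minimum 9 were higher and 31 lower, 40 in all, none of them a member. At these depths, the log2 ratio of Mir152 was not separable from counting error. No paired analysis was possible because the libraries form 1 group.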

Other observations

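The letters of the family's seed, CAGUGCA, occur elsewhere in mature mouse miRNAs, at positions where they are not the seed. Of 17 mature sequences in the table that hold them, 3 have them at bases 2 to 8, and those are the members. A further 7 begin with them, among them Mir130a (20477 CPM in replicate 2 and 19609 CPM in replicate 1), Mir130b (4712 and 5176 CPM) and Mir301 (1111 and 987 CPM), known for their own shared seed, which starts 1 base later within these letters. The 6 of these genes that have a row summed to 26300 CPM in replicate 2 and 25773 CPM in replicate 1, against 1376 and 1259 CPM for the family. Another 4, Mir17, Mir106a, Mir106b and Mir33, hold the letters from base 12, outside the seed. In Mir449c, Mir139 and Mir141 the letters start at bases 4, 5 and 8. Mir449c was at 0 in both libraries. Mir139 had 2368 CPM in replicate 2 and 2606 CPM in replicate 1, and Mir141 3757 and 3008 CPM. Offset matches were searched for after the values were seen, and nothing was tested on them.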
